A study of Homo sapiens with 12 samples.

Results

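Aldehyde dehydrogenases are enzymes that oxidise aldehydes to carboxylic acids, and 11 of their genes are described here in KKU-213A, an established cell line of human cholangiocarcinoma, a cancer of the bile ducts. The members were all genes named ALDH with a family number, a subfamily letter and a gene number, other than ALDH1A3, that appear in at least 1 of the 3 tables deposited by the authors. They are ALDH1B1, ALDH1L1, ALDH3A1, ALDH3A2, ALDH3B1, ALDH3B2, ALDH4A1, ALDH5A1, ALDH6A1, ALDH7A1 and ALDH18A1, of 5308 genes listed in any table. The fixed list of human ALDH genes holds 19 names, of which 7 are in no table and were not analysed here.

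The study sequenced poly(A) RNA from this line in 4 groups of 3, which gives 12 libraries. Control cells grew in low-glucose medium with serum, and no lactate, HEPES or pH is given for them. Lactic acidosis cells were kept at pH 6.7 in that medium with 25 mM HEPES, a buffer, and 25 mM L-lactate, after stepwise adaptation. Lactosis cells had 25 mM L-lactate at pH 7.4, and acidosis cells had 25 mM HEPES at pH 6.5. At least 5 passages in the stated medium preceded use, so treatment cannot be told apart from time in culture, nor acid from buffer. Nothing in the labels tells if the 3 libraries of a group are separate cultures, so the p-values measure only how far libraries differ, and that may be technical.

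Several members have narrow metabolic tasks, mostly in mitochondria. ALDH18A1 makes the proline precursor from glutamate and ALDH4A1 returns that intermediate to glutamate, while ALDH6A1, ALDH7A1 and ALDH5A1 act in the breakdown of valine, lysine and the neurotransmitter GABA. ALDH1L1 oxidises a folate-bound one-carbon unit in the cytosol. The ALDH3 enzymes clear aromatic and lipid-derived aldehydes, and ALDH1B1, a mitochondrial relative of ALDH2, oxidises acetaldehyde and other small aldehydes.

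A table lists a gene only if the authors' probability of equal expression in control and treated cells was under 0.05. Being listed is therefore how the members were found, and their difference from control is a description. The per-library values are scaled by gene length, so levels can be set side by side between genes, but whether they are TPM or FPKM is not stated and read depth is unknown. The authors' mean normalised counts for the members ran from 11.45 for ALDH3B2 to 4363 for ALDH18A1, both in lactic acidosis. Control replicate 1 lies low in the deposited values: library weights fitted to the authors' group means were 1.000, 0.802 and 0.775 for the 3 control libraries of the lactic acidosis table. Rescaling by these weights moved the median log2 difference of all listed genes in lactic acidosis from 0.46 to 0.35, and no member changed direction against control.

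The 11 members fell into a small set listed higher and a larger set listed lower, and none was listed higher under one treatment and lower under another. ALDH1B1 and ALDH18A1 were listed higher in all 3 tables, and ALDH3A2 was listed higher in acidosis only. ALDH3B1, ALDH3B2, ALDH6A1 and ALDH7A1 were listed lower in both media that held lactate, and ALDH1L1 in both acid media. ALDH3A1, ALDH4A1 and ALDH5A1 were listed, lower, in lactic acidosis only. Absence from a table does not show that a member stayed at its control level.

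Promoters are shown for the 4 members that were listed in at least 2 tables and have 1 RefSeq promoter entry. They are the 250 bases before the RefSeq start site on GRCh38.p14, on the gene's own strand, with CpG dinucleotides, the sites of DNA methylation, in capitals. The first pair was listed higher in every table and the second pair lower in both lactate media.
ALDH1B1, chr9:38392452-38392701, plus strand: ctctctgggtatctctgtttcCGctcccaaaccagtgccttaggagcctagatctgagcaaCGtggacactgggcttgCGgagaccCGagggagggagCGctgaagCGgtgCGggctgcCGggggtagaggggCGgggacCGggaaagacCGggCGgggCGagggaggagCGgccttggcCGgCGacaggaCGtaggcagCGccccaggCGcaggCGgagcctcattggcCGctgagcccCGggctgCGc
ALDH18A1, chr10:95656712-95656961, minus strand: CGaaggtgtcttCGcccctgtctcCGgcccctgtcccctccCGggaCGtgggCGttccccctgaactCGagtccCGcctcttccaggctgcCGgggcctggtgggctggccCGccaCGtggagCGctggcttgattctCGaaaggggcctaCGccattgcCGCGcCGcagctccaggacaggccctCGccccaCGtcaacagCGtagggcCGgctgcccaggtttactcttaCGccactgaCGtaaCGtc
ALDH6A1, chr14:74084454-74084703, minus strand: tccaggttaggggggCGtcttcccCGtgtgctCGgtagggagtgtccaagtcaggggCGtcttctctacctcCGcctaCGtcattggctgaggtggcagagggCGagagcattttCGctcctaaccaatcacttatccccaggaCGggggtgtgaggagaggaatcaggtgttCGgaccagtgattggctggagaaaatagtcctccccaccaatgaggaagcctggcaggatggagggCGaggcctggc
ALDH7A1, chr5:126595220-126595469, minus strand: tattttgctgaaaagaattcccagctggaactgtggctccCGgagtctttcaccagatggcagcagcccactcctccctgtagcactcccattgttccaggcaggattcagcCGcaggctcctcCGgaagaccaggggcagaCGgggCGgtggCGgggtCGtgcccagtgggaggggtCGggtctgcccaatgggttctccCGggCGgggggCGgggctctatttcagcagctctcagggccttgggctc

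These windows hold 23 CpG in ALDH1B1, 24 in ALDH18A1, and 11 in each of ALDH6A1 and ALDH7A1, where the median of 35116 RefSeq promoters is 11. Of all these promoters, 25.8% hold at least as many as ALDH1B1, 23.7% as many as ALDH18A1 and 50.3% as many as the other 2. The members had 13 promoter entries for 9 genes, and ALDH3A1 and ALDH3B2 had none. Over all 13, CpG counts did not separate genes listed higher from genes listed lower. ALDH5A1, listed lower, held the most at 33, which 8.15% of promoters reach, and the 2 entries of each other gene held 20 and 9 in ALDH1L1, 19 and 2 in ALDH4A1, 3 and 11 in ALDH3B1, all listed lower, and 9 and 22 in ALDH3A2, listed higher. In windows of 300 bases, from 250 before to 50 after the start site, 3 motifs were searched on both strands: TGATGNAAT, a composite element of ATF4, TGACNNNGC, the antioxidant response element of NRF2, and GCGTG, the core bound by the aryl hydrocarbon receptor. GCGTG was found in ALDH3A2 and ALDH5A1, while 36.5% of all promoters hold it. The letters of the other motifs were not found in the member windows, against 0.991% of all promoters for TGATGNAAT and 13.3% for TGACNNNGC.

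In control cells ALDH18A1 had the highest level of the 11, at 99.4 ± 17.4 (SD, n = 3), above all 3 libraries of every other member. ALDH3A2 followed at 63.2 ± 15.6 (SD, n = 3), then ALDH3B1 at 42.7 ± 5.52 (SD, n = 3) and ALDH7A1 at 42.7 ± 3.97 (SD, n = 3), and the libraries of each of these neighbours overlapped. ALDH1B1 and ALDH3A1 overlapped at 25.8 and 24.4, ALDH6A1 and ALDH4A1 at 14.2 and 14.2, and ALDH3B2 and ALDH5A1, the lowest, at 3.19 and 2.50. In lactic acidosis ALDH1B1 stood second of the 10 listed members, next after ALDH18A1, without overlap with the member on either side. ALDH3B2 went to the lowest place, below ALDH5A1.

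**Figure D1:**
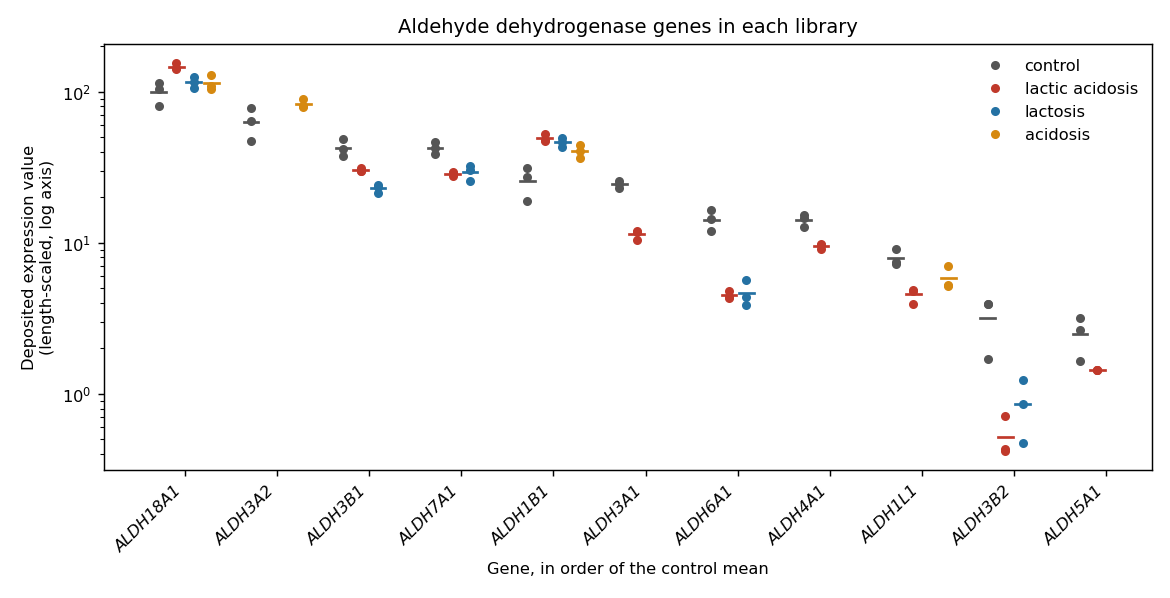
Deposited length-scaled expression of the 11 genes on a log axis, 1 point per library and a bar at the mean of each group of 3, with genes in the order of their control mean; a group is drawn only where the gene is listed in its table. ALDH1B1 lies above control in all 3 treatments, and ALDH6A1 and ALDH3B2 lie below it in both lactate media.

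Lactic acidosis was compared with control. Of the 10 listed members, 2 were higher and 8 lower, where 58.9% of all 4279 listed genes were higher and 41.1% lower. The median log2 fold of the members was -0.79 in the authors' deposited table, and that of all listed genes was 0.37. At least a 2-fold change was listed for 3 members, all lower, against 26.2% of all listed genes. The libraries of the 2 groups did not overlap for 10 of 10 members, as for 90.2% of listed genes (98.8% of those listed higher and 77.9% of those listed lower), and all 10 passed limma on log2(value + 1) at an adjusted p under 0.05, as did 86.1% of listed genes. Both counts are near the background, and both rest on the libraries that chose the members.

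The proline pair went in opposite directions in lactic acidosis. ALDH18A1, on chromosome 10 from 95605929 to 95656706 in GRCh38, stood at 80.04, 104.54 and 113.6 in control and at 142.66, 154.37 and 143.09 in lactic acidosis. ALDH4A1, on chromosome 1 from 18871430 to 18902781, stood at 15.28, 14.53 and 12.65 in control and at 9.81, 9.05 and 9.64 in lactic acidosis. Every lactic acidosis library was above the highest control for ALDH18A1 and below the lowest control for ALDH4A1. The limma log2 difference was 0.57 ± 0.16 (SE) for ALDH18A1 (adjusted p = 0.0102) and -0.53 ± 0.13 (SE) for ALDH4A1 (adjusted p = 0.00687). The ratio of the 2 values within a library does not depend on how libraries are scaled. ALDH18A1 over ALDH4A1 was 5.24, 7.19 and 8.98 in the control libraries and 14.5, 17.1 and 14.8 in the lactic acidosis libraries, without overlap. ALDH4A1 is an uncertain value: 41.7% of its 75-base windows also occur in a transcript of an overlapping protein-coding gene on the same strand.

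ALDH1B1, on chromosome 9 from 38392664 to 38398661, was the other member listed higher. It stood at 18.89, 27.31 and 31.14 in control, at 47.99, 52.43 and 47.37 in lactic acidosis, at 46.56, 43.08 and 49.56 in lactosis, and at 44.15, 40.61 and 36.69 in acidosis. All 9 treated libraries lay above the highest control library. The fold over control given by the authors' deposited tables was 1.79 with lactic acidosis, 1.78 with lactosis and 1.58 with acidosis, comparisons that share their 3 control libraries.

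Members of amino acid breakdown were lower in lactic acidosis. ALDH6A1, on chromosome 14 from 74056850 to 74084493, stood at 16.38, 14.4 and 11.93 in control, at 4.31, 4.82 and 4.37 in lactic acidosis, and at 3.89, 4.39 and 5.67 in lactosis. The highest treated library was below the lowest control, and the authors' deposited table puts control 3.50-fold above lactic acidosis and 3.21-fold above lactosis. ALDH7A1, on chromosome 5 from 126531200 to 126595418, stood at 38.77, 42.53 and 46.71 in control, at 29.48, 28.84 and 27.71 in lactic acidosis, and at 30.46, 25.83 and 32.51 in lactosis. Its groups did not overlap either, with limma log2 differences of -0.55 ± 0.13 (SE, adjusted p = 0.00544) and -0.52 ± 0.15 (SE, adjusted p = 0.0141). Without lactosis replicate 2 the adjusted p in limma for ALDH7A1 in lactosis was 0.0559. ALDH5A1, on chromosome 6 from 24494852 to 24537207, stood at 1.65, 2.65 and 3.2 in control and at 1.43 in each of the lactic acidosis libraries. Control replicate 1 came closest to the treated value, and the limma call for ALDH5A1 (log2 difference -0.50 ± 0.18 SE, adjusted p = 0.026) was lost without any single library other than control replicate 1 (adjusted p 0.0691 to 0.0793), and with a pseudocount of 5 (adjusted p = 0.071).

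ALDH3A1, ALDH3B1 and ALDH3B2, members of the ALDH3 family, were lower too. ALDH3A1, on chromosome 17 from 19737984 to 19748943, stood at 25.64, 23.22 and 24.47 in control and at 11.81, 10.42 and 11.96 in lactic acidosis, without overlap (limma log2 difference -1.04 ± 0.13 SE, adjusted p = 3.01e-04). ALDH3B1, on chromosome 11 from 68008578 to 68029282, stood at 42.06, 48.52 and 37.53 in control, at 29.76, 30.13 and 31.14 in lactic acidosis, and at 24.1, 21.36 and 23.59 in lactosis. The 3 groups of ALDH3B1 did not overlap with each other. Its limma call in lactic acidosis (log2 difference -0.47 ± 0.14 SE, adjusted p = 0.013) was lost without lactic acidosis replicate 1 (adjusted p = 0.0506) or control replicate 2 (adjusted p = 0.0531).

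ALDH3B2, a paralog of ALDH3B1 also on chromosome 11, from 67662162 to 67681200, had the largest fold of the members and the lowest treated level. It stood at 1.7, 3.94 and 3.93 in control, at 0.43, 0.42 and 0.71 in lactic acidosis, and at 0.47, 0.86 and 1.23 in lactosis. Control replicate 1 lay well under the other controls but above every treated library. The authors' deposited table puts control 6.30-fold above lactic acidosis, with mean normalised counts of 74.59 and 11.45, and 3.70-fold above lactosis. ALDH3B1 and ALDH3B2 share none of their 75-base windows with another gene (0% for each), so reads of this length tell them apart where they match in full. The ratio of ALDH3B2 to ALDH3B1 was 0.0404, 0.0812 and 0.105 in control, 0.0144, 0.0139 and 0.0228 in lactic acidosis, and 0.0195, 0.0403 and 0.0521 in lactosis. Lactic acidosis lay below control in this ratio, and lactosis overlapped with control.

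ALDH1L1, the folate enzyme on chromosome 3 from 126103562 to 126197994, was lower in both acid media. It stood at 7.21, 9.06 and 7.51 in control, at 3.96, 4.89 and 4.83 in lactic acidosis, and at 6.98, 5.27 and 5.21 in acidosis. The acidosis libraries reached closer to control: acidosis replicate 1, at 6.98, was just under the lowest control library, at 7.21. The limma log2 difference from control was -0.68 ± 0.14 (SE, adjusted p = 0.00344) in lactic acidosis and -0.39 ± 0.17 (SE, adjusted p = 0.0561) in acidosis. With single libraries left out, the adjusted p of ALDH1L1 in acidosis ran from 0.0198 without control replicate 1 to 0.2 without control replicate 2 (limma).

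**Figure D2:**
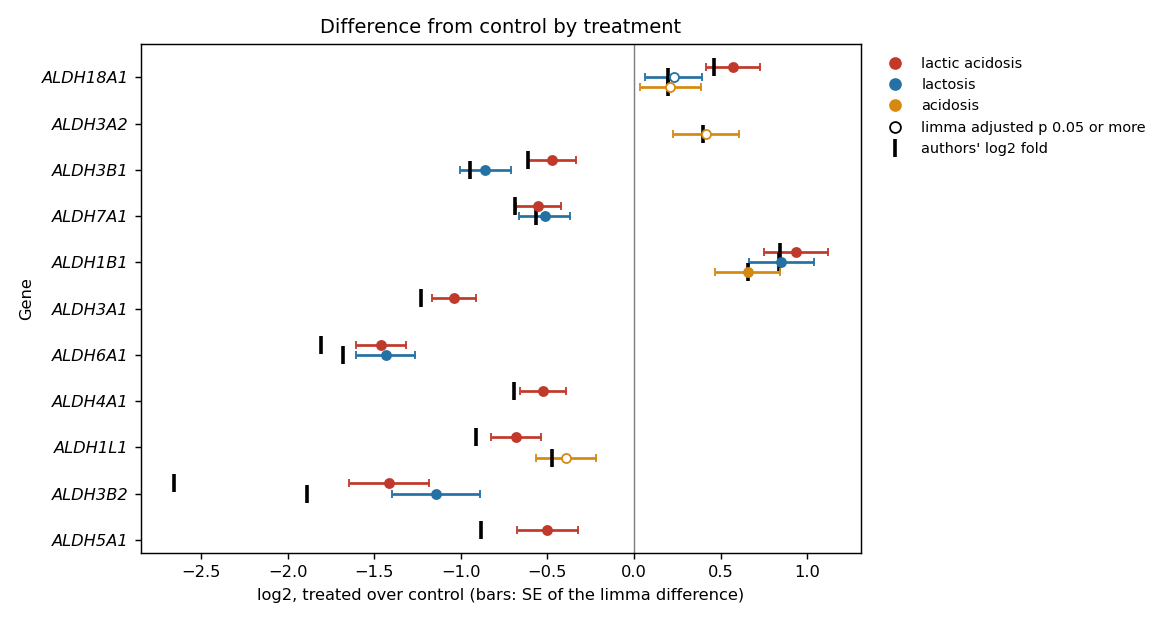
Difference from control in log2 units for each gene and treatment: circles give the limma difference of log2(value + 1) with its SE, open where the adjusted p was 0.05 or more, and black ticks the authors' log2 fold. ALDH1B1 and ALDH18A1 lie right of 0 in all 3 treatments, and the open circles belong to ALDH18A1 in lactosis and acidosis and to ALDH3A2 and ALDH1L1 in acidosis.

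Lactosis was compared with control to see lactate at neutral pH. Of the 6 listed members, 2 were higher and 4 lower, where 59.3% of all 3087 listed genes were higher and 40.7% lower, and the median log2 fold in the authors' deposited table was -0.76 for the members and 0.35 for all listed genes. Libraries did not overlap for 5 of the 6, as for 84.0% of listed genes (87.9% of those higher and 78.4% of those lower), and 5 of the 6 passed limma, as did 77.7% of listed genes. ALDH3B2 and ALDH6A1, 2 of the 6, were lower by at least 2-fold, against 20.9% of listed genes. The exception in both other counts was ALDH18A1, at 115.32, 106.42 and 125.53, whose lowest lactosis library was under the highest control of 113.6. The authors' deposited table gives ALDH18A1 a fold of 1.15 in lactosis at a probability of equal expression of 4.05e-06, while limma on the deposited values gave a log2 difference of 0.23 ± 0.16 (SE, adjusted p = 0.2). On values rescaled by the fitted library weights the adjusted p in limma was 0.0455 and the libraries of ALDH18A1 did not overlap, with 80.04, 82.39 and 87.47 in control and 94.4, 94.0 and 98.1 in lactosis. Without control replicate 1 the difference of ALDH18A1 on deposited values was 0.08 (adjusted p = 0.492, limma).

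Acidosis was compared with control to see acid and buffer without lactate. Of the 4 listed members, 3 were higher and 1 lower, where 61.1% of all 1721 listed genes were higher and 38.9% lower, and no member changed by 2-fold, against 12.5% of listed genes. The median log2 fold in the authors' deposited table was 0.30 for the members and 0.32 for all listed genes. Libraries did not overlap for 3 of the 4, against 75.5% of listed genes (82.2% of those higher and 64.9% of those lower), and 1 of the 4 passed limma, against 60.0%. ALDH3A2, which encodes the fatty aldehyde dehydrogenase of the endoplasmic reticulum, lies on the same chromosome as ALDH3A1, chromosome 17, from 19648136 to 19677598. It stood at 47.19, 64.21 and 78.26 in control and at 89.31, 80.35 and 79.49 in acidosis, so the groups did not overlap but the lowest acidosis library was just above the highest control. Limma gave a log2 difference of 0.42 ± 0.19 (SE, adjusted p = 0.0631) for ALDH3A2, and an adjusted p of 0.00643 on rescaled values. On the rescaled values 1680 of 1721 listed genes passed, so a pass there does not set a member apart. Without control replicate 1 the difference of ALDH3A2 was 0.22 (adjusted p = 0.124, limma), and without control replicate 3 it was 0.58 (adjusted p = 0.013, limma). ALDH18A1 overlapped with control again, at 128.86, 109.75 and 104.56 (log2 difference 0.21, adjusted p = 0.258, limma, and 0.06 without control replicate 1, adjusted p = 0.626), and ALDH1L1 had an adjusted p of 0.00739 in limma on rescaled values. ALDH1B1 was the member that passed (log2 difference 0.66 ± 0.19 SE, adjusted p = 0.0127, limma), a call lost without acidosis replicate 1 (adjusted p = 0.0605) or replicate 2 (adjusted p = 0.0508).

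**Figure D3:**
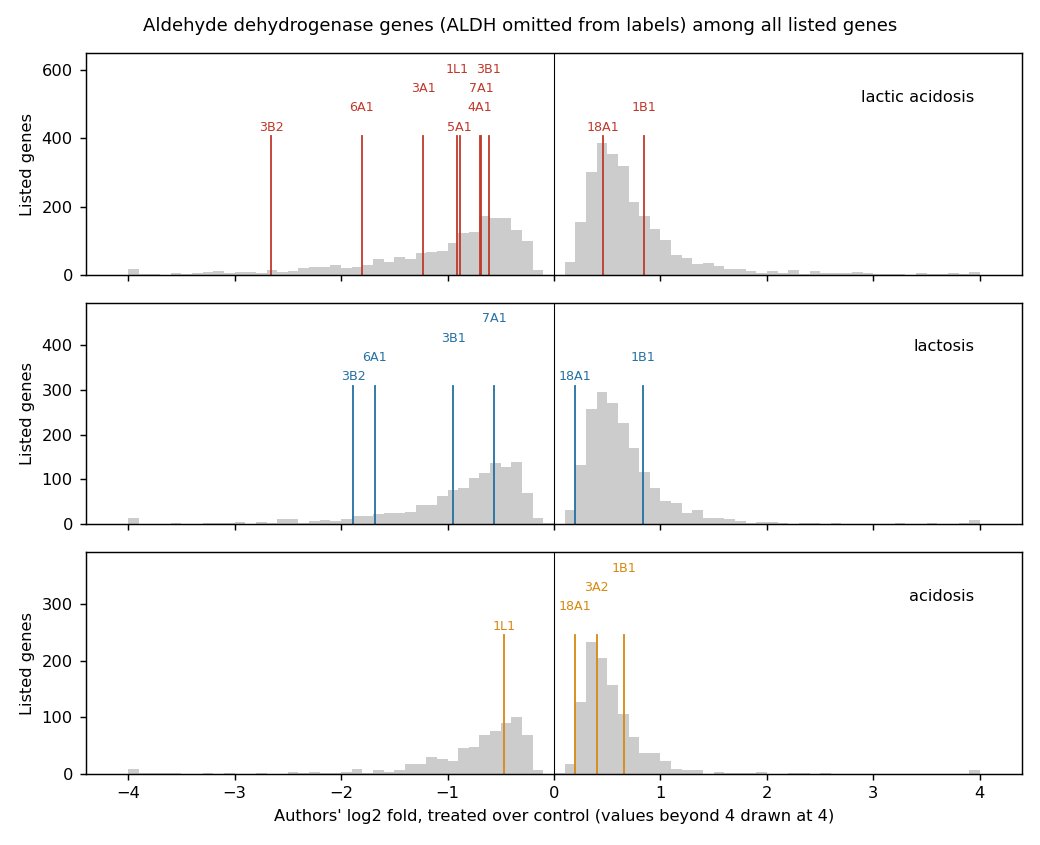
Number of listed genes by the authors' log2 fold of treated over control, in bins of 0.1, with vertical lines at the aldehyde dehydrogenase genes. Left of 0 lie 8 of 10 lines for lactic acidosis, 4 of 6 for lactosis and 1 of 4 for acidosis.

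The treated groups were then compared with each other by limma, over all genes listed in both tables. The listing did not use these contrasts directly, although both tables share the control libraries. Between lactic acidosis and lactosis, 2 of 6 members passed, both higher in lactic acidosis, where 20.4% of 2344 genes passed and 15.7% passed higher. The libraries of the same 2 did not overlap, against 40.9% of genes. ALDH3B1 was higher in lactic acidosis, at 30.3 ± 0.714 (SD, n = 3) against 23.0 ± 1.46 (SD, n = 3), with a log2 difference of 0.39 ± 0.08 (SE, adjusted p = 0.00799), so the drop listed against control was smaller in lactic acidosis than in lactosis. ALDH18A1 was also higher in lactic acidosis, at 147 ± 6.64 (SD, n = 3) against 116 ± 9.56 (SD, n = 3), by 0.34 ± 0.09 (SE, adjusted p = 0.0208). That call was lost without lactic acidosis replicate 1, 2 or 3 or without lactosis replicate 1 (adjusted p 0.0519 to 0.079, limma), and the difference ran from 0.31 to 0.36 in those fits.

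ALDH6A1, ALDH7A1, ALDH1B1 and ALDH3B2 overlapped between the lactate media, and none of these passed. The log2 difference of lactic acidosis over lactosis was -0.03 for ALDH6A1 (95% interval -0.28 to 0.22) and -0.04 for ALDH7A1 (95% interval -0.25 to 0.17). That of ALDH1B1 was 0.09 (95% interval -0.11 to 0.28), and that of ALDH3B2 was -0.27 (95% interval -0.58 to 0.04). The ALDH3B2 difference was -0.43 without lactosis replicate 1 (adjusted p = 0.0505, limma) and -0.13 without lactosis replicate 3 (adjusted p = 0.445, limma). These intervals bound the difference without showing that the media acted alike.

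Between lactic acidosis and acidosis, 2 of 3 members passed, both higher in lactic acidosis, where 48.8% of 1304 genes passed and 38.7% passed higher. Lactic acidosis medium was at pH 6.7 and acidosis medium at pH 6.5, so lactate and this pH difference cannot be told apart here. ALDH18A1 was higher in lactic acidosis by 0.36 ± 0.09 on the log2 scale (SE, adjusted p = 0.00954, limma) and ALDH1B1 by 0.28 ± 0.09 (SE, adjusted p = 0.0248, limma). The libraries of all 3 members did not overlap, against 58.2% of genes. The ALDH1B1 call was lost without lactic acidosis replicate 1 or 2 or acidosis replicate 2 or 3 (adjusted p 0.0541 to 0.0964, limma). ALDH1L1 was lower in lactic acidosis without overlap (log2 difference -0.29 ± 0.12 SE, adjusted p = 0.0619, limma), and on rescaled values its adjusted p was 0.00304. On the rescaled values 623 of 1304 genes passed. Without acidosis replicate 1 this ALDH1L1 difference was -0.17 (adjusted p = 0.135, limma), without lactic acidosis replicate 1 it was -0.21 (adjusted p = 0.205, limma), and without acidosis replicate 3 it was -0.35 (adjusted p = 0.0333, limma). Between lactosis and acidosis, 0 of 2 members passed limma, and 0 had an unadjusted p under 0.05, where 23.9% of 1173 genes passed. Both members overlapped, while 39.7% of genes did not. ALDH18A1 differed there by 0.02 (95% interval -0.21 to 0.25) and ALDH1B1 by 0.19 (95% interval -0.02 to 0.40).

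The 2 genes listed higher everywhere did not move in step. ALDH1B1 over ALDH18A1 within a library was 0.236, 0.261 and 0.274 in control, 0.336, 0.34 and 0.331 in lactic acidosis, 0.404, 0.405 and 0.395 in lactosis, and 0.343, 0.37 and 0.351 in acidosis. All treated libraries lay above control, the lactosis libraries lay above all others, and lactic acidosis lay just under acidosis. The ratio was chosen after its values were seen. Its SD was 0.0194 in control, 0.0141 in acidosis, 0.00549 in lactosis and 0.00434 in lactic acidosis, so the means of lactic acidosis (0.336) and acidosis (0.355) lie close for their spread.

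**Figure D4:**
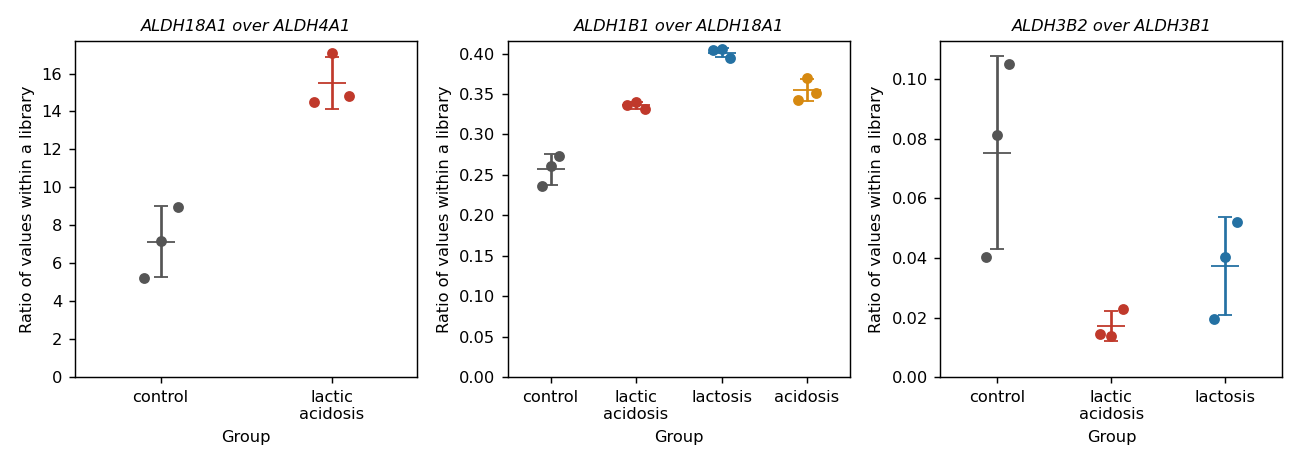
Ratios of 2 members within each library, which do not depend on library scaling, with 1 point per library and the mean and SD of 3; axes start at 0. ALDH18A1 over ALDH4A1 lies between 14.5 and 17.1 in lactic acidosis, above control, and ALDH1B1 over ALDH18A1 is highest in lactosis.

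The control libraries differed among themselves in members of both directions. On rescaled values of the lactic acidosis table, ALDH18A1 had a coefficient of variation of 4.79% across the controls and ALDH7A1 one of 6.44%. ALDH6A1 varied by 29.38%, from 16.38 in control replicate 1 to 9.25 in replicate 3, and ALDH4A1 by 22.74%, in the same order. ALDH3A1, close together on the deposited values at 4.95%, varied by 18.78% once rescaled, with control replicate 1 highest at 25.64. ALDH3B2 and ALDH5A1 had their lowest control value in replicate 1 instead, at 1.70 and 1.65. So did ALDH18A1 and ALDH1B1, which rose from 80.04 to 88.07 and from 18.89 to 24.14 between control replicates 1 and 3. Within lactic acidosis the same coefficient was at most 10.58% for the 9 members other than ALDH3B2, which stood at 33.63%.

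Over the libraries in which each was listed, the genes most like 3 members were found by Pearson correlation of log2(value + 1). Only genes listed in all 3 tables were compared, so each had been called different from control under every treatment. These are descriptions across libraries that share their controls. For ALDH1B1, over 12 libraries, they were MTCL1 (r = 0.991), GINS3 (r = 0.989) and CCND3 (r = 0.989), but 500 of the 1041 genes compared had r over 0.9. For ALDH18A1 they were DNAJA2 (r = 0.983), ATL3 (r = 0.983) and UBQLN4 (r = 0.982), among 161 genes over 0.9. For ALDH6A1, over 9 libraries, they were TNFSF15 (r = 0.993), CPEB3 (r = 0.985) and CYP26A1 (r = 0.981), among 137 genes over 0.9.

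Partner genes of the members were described from fixed lists by their listed counts. Of 23 genes of branched-chain amino acid breakdown, the pathway that holds ALDH6A1, 7 were lower and 1 higher in lactic acidosis (median log2 fold -0.57, against 0.37 for all listed genes), 6 lower and 0 higher in lactosis, and 2 lower and 1 higher in acidosis. By limma, 6 of the lower genes passed for lactic acidosis, 5 for lactosis and 2 for acidosis, where 86.1%, 77.7% and 60.0% of all listed genes passed in either direction. MCCC1, a subunit of the leucine pathway's carboxylase, averaged 54.7 ± 2.36 (SD, n = 3) in control, 33.6 ± 1.05 (SD, n = 3) in lactic acidosis, 37.6 ± 5.27 (SD, n = 3) in lactosis and 37.2 ± 3.34 (SD, n = 3) in acidosis, and passed limma in all 3. BCKDHB, a subunit of the branched-chain ketoacid dehydrogenase, had log2 folds of -0.62, -0.62 and -0.57 in the authors' deposited tables. The gene listed higher was BCKDK, the kinase that inhibits that dehydrogenase, at 0.36 in lactic acidosis and 0.24 in acidosis in the authors' deposited tables. BCKDK passed limma in lactic acidosis (adjusted p = 0.0151) but not in acidosis (adjusted p = 0.161).

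Of 13 other genes of proline and ornithine metabolism, 2 were higher and 1 lower in lactic acidosis, and all 3 passed limma, near the 86.1% of all listed genes that did. PYCRL, which makes proline from the product of ALDH18A1, was listed higher in all 3 tables, with log2 folds of 0.42, 0.82 and 0.45 in lactic acidosis, lactosis and acidosis in the authors' deposited tables. Of 23 folate genes, 3 were higher and 2 lower in lactic acidosis. SLC19A1 and SLC25A32, folate carriers of the plasma membrane and of mitochondria, had log2 folds of 0.85 and 0.82 there, per the authors' deposited table.

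Of 11 genes of lysine, GABA and carnitine pathways, 2 were listed in lactic acidosis, both lower, and 4 in lactosis, 3 lower and 1 higher. The gene listed higher was AADAT, an aminotransferase of lysine breakdown, with 2.51, 3.97 and 4.32 in control and 4.8, 5.73 and 6.0 in lactosis (limma log2 difference 0.52, adjusted p = 0.0290). AASS, the first enzyme of lysine breakdown upstream of ALDH7A1, averaged 7.17 ± 1.44 (SD, n = 3) in control, 4.71 ± 0.468 (SD, n = 3) in lactic acidosis and 4.50 ± 0.355 (SD, n = 3) in lactosis, and passed limma in both (adjusted p = 0.0193 and 0.0159). In acidosis none of these 11 was listed.

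Of 7 genes on the list of the aryl hydrocarbon receptor, which induces ALDH3A1 in many cells, 3 were lower and 1 higher in lactic acidosis, and all 4 passed limma, near the 86.1% of all listed genes that did. In lactosis 1 was higher and 1 lower, and in acidosis 1 was lower. The lower gene in both was NFE2L2, which encodes NRF2. Its log2 folds were -0.50, -0.49 and -0.31 in lactic acidosis, lactosis and acidosis in the authors' deposited tables. NFE2L2 did not pass limma in acidosis (adjusted p = 0.123). CYP1A1 and CYP1B1 were listed in lactic acidosis only. CYP1A1, the receptor's best known target, had a mean of 0.780 ± 0.207 (SD, n = 3) in lactic acidosis against 3.42 ± 1.00 (SD, n = 3) in control, and CYP1B1 had 1.35 ± 0.0860 (SD, n = 3) against 3.41 ± 0.201 (SD, n = 3). AHRR, the receptor's repressor and itself a target, went the other way, with 6.63, 10.34 and 10.8 in control and 13.9, 14.15 and 13.96 in lactic acidosis. Of 20 NRF2 targets, 3 were higher and 4 lower in lactic acidosis, among them SRXN1 at 0.63 and EPHX1 at -1.96 (log2 fold, the authors' deposited table). Of 29 other aldehyde and alcohol oxidoreductases and related enzymes, 1 was higher and 3 lower there, with GSTP1 at -1.58, CBR3 at -0.89 and AOX1, at a low level, at 1.89 (log2 fold, the authors' deposited table).

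Of 12 genes of fatty aldehyde sources, 3 were higher and 2 lower in lactic acidosis and in lactosis, and 2 higher and 1 lower in acidosis, where ALDH3A2 was listed. FAR2, which reduces fatty acyl-CoA, had log2 folds of 1.76, 0.57 and 0.83 in the 3 deposited tables of the authors, and passed limma in each. SPHK1, the sphingosine kinase, averaged 16.2 ± 1.12 (SD, n = 3) in control, 80.5 ± 13.1 (SD, n = 3) in lactic acidosis and 98.3 ± 3.98 (SD, n = 3) in lactosis. SGPL1, the lyase whose aldehyde product ALDH3A2 oxidises, had a mean of 27.0 ± 4.02 (SD, n = 3) in acidosis against 37.4 ± 4.25 (SD, n = 3) in control (adjusted p = 0.0337, limma). Of 25 targets of ATF4, 8 were listed for lactic acidosis, 8 for lactosis and 9 for acidosis, all lower, where 41.1%, 40.7% and 38.9% of all listed genes were lower. ALDH18A1 was listed higher in each, but did not pass limma in lactosis (adjusted p = 0.2) or in acidosis (adjusted p = 0.258). Of 13 retinoid genes, 2 were higher and 5 lower in lactic acidosis, with CRABP2 at 1.37 and DHRS3 at -1.54 (log2 fold, the authors' deposited table).

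Markers of the labelled cell type and of other cells were looked up among the listed genes. A marker is listed only if the authors called it different from control. The number of listed markers therefore cannot show which cell types were present or absent. Of 10 biliary markers, KRT19, SOX9, CDH1, MUC1 and SPP1 were listed in lactic acidosis, with summed levels from 2881 to 4530 in control and from 2751 to 3201 in lactic acidosis. No fibroblast or blood marker was listed in any table, and of 8 hepatocyte markers only SERPINA1 was, in lactic acidosis, summed at 4.62 to 7.38 in control and 9.44 to 10.7 in treated libraries. Of 10 muscle markers, 7 were listed in lactic acidosis and 6 in lactosis, and their sum stood apart in 1 library of each group: 36.7 in lactic acidosis replicate 2 against 5.41 and 4.51, and 49.1 in lactosis replicate 2 against 0.490 and 0.530. Without lactic acidosis replicate 2, 9 of 10 members passed limma against control, where 2624 of 4279 listed genes did. ALDH5A1 did not pass there, nor without most other single libraries. Without lactosis replicate 2, 4 of 6 members passed, where 1764 of 3087 listed genes did. ALDH7A1 lost its call in that fit, while ALDH18A1 had not passed with all libraries either (adjusted p = 0.2, limma).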

How the data were processed

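Reads of 75 nt, single-end, were aligned with STAR to hg38, per the submitters' processing notes; the counting tool is not given in the sources used here. The deposited per-library values are a signal, expression scaled by gene length. The deposited group means are a signal too, counts over size factors. The deposited fold is a ratio of control over treated and was inverted. The deposited probabilities of equal expression lie between 0 and 1. Control values were equal in the 3 tables (largest difference 0). Differences were fitted by limma 3.58.1 (R 4.3.3) to log2(value + 1), unfiltered, with Benjamini-Hochberg adjustment over all genes of a table or of a pair of tables, at 0.05; a difference on this scale understates that of low genes. The fits were tested on simulated data. The members and gene lists were chosen with earlier results of these data known. All members are named; list genes, up to 4 per list, are those listed in most tables, then by the authors' probability; some of these are not reported here. The 3 ratios were chosen after their values were seen. Alternatives were pseudocounts of 0.1 and 5, a mean value of at least 1, the replicate number as a block, each library left out, and rescaling by library weights fitted to the authors' group means. Gene positions and windows are from GENCODE 29 on GRCh38, promoters from RefSeq on GRCh38.p14. ALDH1L1, ALDH3A1, ALDH5A1 and ALDH6A1 overlap exons of genes on the opposite strand, by 1.83%, 2.50%, 4.33% and 10.0% of their exonic bases for the largest, and the counting is not stated to use strand.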

Additional observations from a re-analysis of the deposited data

How the results depend on the processing

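For single members, 306 of 340 alternative values kept their direction and their side of the threshold, 20 lost the call, 8 gained it and 6 changed sign, all 6 of them differences that had not passed. The sign changes were ALDH18A1 in lactosis against acidosis on rescaled values (-0.006) and without lactosis replicate 3 (-0.04), acidosis replicate 2 (-0.007) or acidosis replicate 3 (-0.042), and, without lactosis replicate 3, ALDH6A1 (0.098) and ALDH7A1 (0.03) in lactic acidosis against lactosis. With single libraries left out, these differences ran from -0.042 to 0.108 for ALDH18A1, from -0.126 to 0.098 for ALDH6A1 and from -0.13 to 0.03 for ALDH7A1. The cause was not tested.

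With single libraries left out, members past limma ran from 0 to 3 in acidosis against control, from 1 to 2 in lactic acidosis against lactosis and from 1 to 2 in lactic acidosis against acidosis. All listed genes past limma ran from 1423 to 2589 in lactosis against control, from 425 to 1251 in acidosis against control, from 259 to 663 in lactic acidosis against lactosis and from 131 to 335 in lactosis against acidosis; these fits have fewer samples. On rescaled values 3 members and 1680 listed genes passed in acidosis against control. At 2-fold or more, 3 members were left for lactic acidosis, 2 for lactosis and 0 for acidosis.

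With the replicate block, 656 listed genes passed in acidosis against control and 1 member in lactic acidosis against lactosis, where ALDH18A1 had an adjusted p of 0.0603 (limma). Deviations of each gene from its group mean, with the library median removed, were correlated between libraries of different groups. For same-numbered libraries r lay between -0.387 and 0.217 in 18 pairs. In 5 of 18 the deviations correlated best with their own number, so the numbers were not taken as pairs. With a mean value of at least 1, ALDH3B2 was left out of lactic acidosis against lactosis and has no value there.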
